A study of Mus musculus with 11 samples.

Results

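Vascular smooth muscle cells of the mouse brain were followed across sham surgery and middle cerebral artery occlusion with reperfusion (MCAO/R) in WT and Lrg1-/- mice. The cells were chosen by their own counts of 15 genes. A cell was taken as a vascular smooth muscle cell when UMIs of at least 3 of the 6 genes Acta2, Myh11, Tagln, Cnn1, Pln and Mustn1 were detected in it, with Myh11 or Cnn1 among them. Fewer than 2 of the endothelial genes Cldn5, Flt1, Pecam1 and Cdh5, and fewer than 2 of P2ry12, Tmem119, Mog, Aqp4 and Kcnj13 (genes of microglia, oligodendrocytes, astrocytes and choroid plexus), were allowed. Among 155804 barcodes, 132437 cells had more than 500 genes, more than 1000 UMIs and less than 25% mitochondrial UMIs, and 3488 of these passed the rule.

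Each of the 11 droplet libraries held cells of dissociated brain tissue from 1 mouse. The groups were sham + WT (wild-type C57BL/6 mice after sham surgery, 3 libraries, 745 smooth muscle cells), sham + Lrg1-/- (knockout mice after sham surgery, 3 libraries, 668 cells), MCAO/R + WT (2 libraries, 432 cells) and MCAO/R + Lrg1-/- (3 libraries, 1643 cells). The Lrg1-/- allele was a conventional knockout, with target sites in exon 1 and at the stop codon in exon 2, per the methods of the study. These methods describe the WT mice as males and give their age in weeks, while for the Lrg1-/- mice they give a higher age, in months, a backcross to the C57BL/6N substrain and no sex, so that age and substrain cannot be told apart from genotype. The labels give neither the duration of occlusion nor that of reperfusion for the sequenced mice. Groups were compared between mice, with the UMIs of the smooth muscle cells summed per library. Their p-values refer to the spread between these libraries. Comparisons with endothelial cells and pericytes used sums per library and cell type, with the mouse as a block.

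Vascular smooth muscle cells wrap arterioles and set vessel calibre. Calcium entry and release activate the myosin that pulls on smooth muscle actin, while cGMP, cAMP and potassium channels relax the cell, and endothelin, serotonin and the peptide CGRP act through receptors on its surface. The contractile genes are driven by serum response factor and its cofactor myocardin through the CArG box, and after injury the cells can lower these genes and express more matrix and inflammatory genes. Lrg1 encodes a secreted leucine-rich glycoprotein that modulates TGF-beta signalling.

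Promoters were searched for the CArG box, on both strands and in the 250 bases before each start in the RefSeq table of GRCm38.p6, because the contractile list is the one on which this cell type is defined. A box was found for 439 of 27025 genes, or 1.62%. Of the contractile genes outside the rule, 37 of 42 had an entry and 6 held a box (Myl9, Cnn2, Myl6, Vcl, Ldb3 and Filip1l). None of the 4 rule genes with an entry held one, nor did any of 68 genes of oxidative phosphorylation. It was found for 1 of 29 channel and calcium genes (Trpc6) and 1 of 64 cytosolic ribosomal protein genes (Rpl10a). The search took only the exact letters CC, then 6 of A or T, then GG. A match is a description of letters and says nothing of binding. A miss does not show that a gene lacks a box with other letters or outside these 250 bases. Myl9, the regulatory light chain of smooth muscle myosin, and Vcl, vinculin of the adhesion plaques, are shown with the box in capitals, from 250 to 51 bases before the start and on the plus strand, at chr2:156775214-156775413 and chr14:20929148-20929347.
Myl9: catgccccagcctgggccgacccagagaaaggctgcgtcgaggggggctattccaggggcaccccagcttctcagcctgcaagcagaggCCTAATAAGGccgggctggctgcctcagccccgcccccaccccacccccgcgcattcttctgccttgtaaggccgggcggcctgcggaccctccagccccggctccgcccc
Vcl: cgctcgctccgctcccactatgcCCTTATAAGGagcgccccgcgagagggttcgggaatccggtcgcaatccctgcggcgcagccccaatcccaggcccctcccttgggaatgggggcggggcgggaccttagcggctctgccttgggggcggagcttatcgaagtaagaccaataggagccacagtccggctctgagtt

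The label was checked against contractile genes that the rule did not use, and 1 library stood apart by the median over all its cells. Of 9 such genes, the median smooth muscle cell held 7 or 8 in the other 10 libraries and 3 in replicate 5 of MCAO/R + Lrg1-/-, which supplied 1169 of the 3488 cells. That library had a median of 3170 UMIs per smooth muscle cell, against 5075 to 11220 in the other 10. Its cells drew a median of 0.385% of their UMIs from the 6 rule genes, against 0.882% to 2.81% elsewhere. In 676 of its 1169 cells (57.8%) at least 3% of UMIs were haemoglobin, beside 49.0% of all retained cells of this library. Haemoglobin-rich smooth muscle cells numbered 805 in all, and 0 in the 5 WT libraries. In the other Lrg1-/- libraries haemoglobin-rich cells made up 6.74% to 13.7% of the smooth muscle cells and 14.6% to 42.5% of the retained cells. The contractile genes go against the name for a large share of the cells of replicate 5, which passed the rule on few UMIs.

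Results are for that reason given for all cells and again for the cells with at least 1% of UMIs from the 6 rule genes, in which the median cell held 8 or 9 of the 9 contractile genes in every library. These were 1781 cells, or 51.1%. By group they were 559 (75%) in sham + WT, 366 (54.8%) in sham + Lrg1-/-, 310 (71.8%) in MCAO/R + WT and 546 (33.2%) in MCAO/R + Lrg1-/-, with 290 of 1169 (24.8%) in the library that stood apart. In the cells below 1%, the median cell held 5 or 6 of the 9 contractile genes in the WT libraries. It held 3 in every sham + Lrg1-/- library and in replicates 1 and 5 of MCAO/R + Lrg1-/-, and 5 in replicate 2. The weak label was therefore not limited to 1 library. All 6 rule genes were detected in 872 cells (25%) and just 3 of them in 1091 (31.3%). At the edge of the rule in that library, 573 cells with 3 of the 6 genes had a median of 0.243% of UMIs from them, and 471 cells left out with 2 of the 6 had 0.0903%. This gap is partly set by the rule, which counts the same genes. Another 403 cells, left out with 3 or more of the genes but without Myh11 and Cnn1, had 0.231%. Of the 9 contractile genes the median cell held 2 in the 573 cells, 1 in the 471 and 2 in the 403. Between libraries, 2 cell barcodes of smooth muscle cells were shared over 55 pairs.

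**Figure D1:**
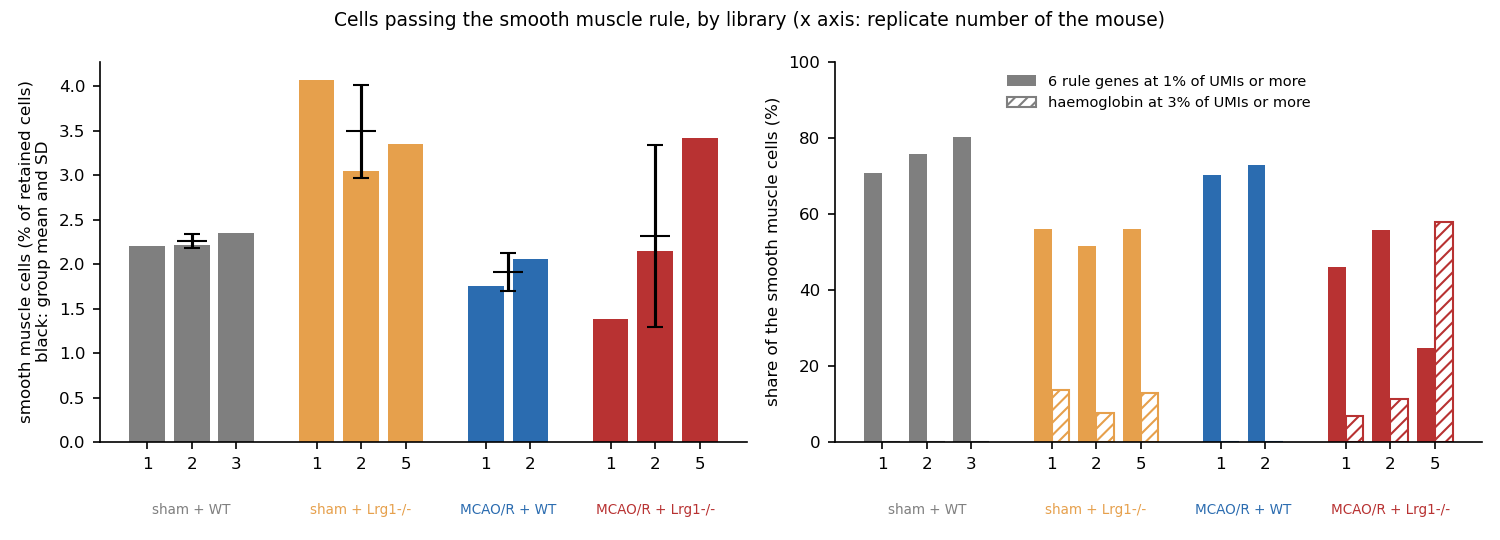
Left, smooth muscle cells as a percentage of retained cells in each library (bars, with the group mean and SD in black). Right, the percentage of the smooth muscle cells with 1% or more of their UMIs from the 6 rule genes (filled) and with 3% or more from haemoglobin (hatched): haemoglobin-rich cells are absent from the WT libraries and make up 57.8% in replicate 5 of MCAO/R + Lrg1-/-.

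The share of smooth muscle cells among retained cells did not separate the groups beyond what so few mice can show. It was 2.21%, 2.21% and 2.35% in sham + WT (mean 2.26% ± 0.080, SD, n = 3) and 1.76% and 2.06% in MCAO/R + WT (1.91% ± 0.214, n = 2). In sham + Lrg1-/- it was 4.08%, 3.05% and 3.35% (3.49% ± 0.527, n = 3), and in MCAO/R + Lrg1-/- it was 1.38%, 2.15% and 3.42% (2.32% ± 1.03, n = 3). Both WT groups and both sham groups were free of overlap, while the MCAO/R + Lrg1-/- mice covered the whole range of the others but the highest. Exact two-sided permutation tests gave p = 0.2 for MCAO/R in WT mice, p = 0.3 for MCAO/R in Lrg1-/- mice, p = 0.8 for genotype after MCAO/R and p = 0.1 for genotype after sham surgery. The smallest p these designs allow is 0.2 with 2 mice against 3 and 0.1 with 3 against 3. With the cells at 1% or more, the genotype difference after MCAO/R turned from 0.407 to -0.473 percentage points. After sham surgery it went from 1.24 to 0.202 percentage points there, with 1.56%, 1.67% and 1.88% in WT and 2.28%, 1.57% and 1.88% in Lrg1-/- mice, which overlapped (exact permutation p = 0.6). For MCAO/R in Lrg1-/- mice it was -1.01 percentage points in these cells, with 0.637%, 1.20% and 0.848% after MCAO/R, free of overlap with the sham mice (exact permutation p = 0.1, the smallest possible). In a count of cells, fewer smooth muscle cells and more cells of another type cannot be told apart. The share at 1% or more has a further limit, since its cut is on UMIs of the rule genes. Acta2 and Pln were lower after MCAO/R than in every sham library, while Cnn1 was higher in Lrg1-/- mice. Lower expression of rule genes can move a cell below the cut, so this share can fall without a loss of cells. The part of expression in these differences was not tested.

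The 6 rule genes are given as a description, without a test, since they chose the cells. Acta2, smooth muscle actin, stood at 14012, 13385 and 13135 UMIs per 1000000 in sham + WT and at 11440, 13130 and 12640 in sham + Lrg1-/-. After MCAO/R it stood at 9581 and 8104 in WT mice and at 9137, 7854 and 5072 in Lrg1-/- mice, below every sham library. Pln, phospholamban, the brake on the calcium pump of the sarcoplasmic reticulum, stood at 772, 711 and 898 in sham + WT and at 763, 893 and 749 in sham + Lrg1-/-. After MCAO/R it was at 248 and 234 in WT mice and at 409, 177 and 133 in Lrg1-/- mice, so that sham and MCAO/R libraries did not overlap. In the cells at 1% or more, which the same genes chose, Pln was at 882 to 1220 in the 6 sham libraries and at 250 to 606 in the 5 MCAO/R libraries. Tagln, transgelin, an actin-binding protein, was at 8602 to 8988 in sham + WT and at 8892 and 8913 in MCAO/R + WT, and the 2 groups overlapped. In Lrg1-/- mice it was at 6225, 7930 and 7799 after sham surgery and at 6574, 7964 and 4788 after MCAO/R. Myh11, the smooth muscle myosin heavy chain, was at 2939, 3025 and 3297 in sham + WT and at 2215 and 2211 in MCAO/R + WT, and at 2653, 3058 and 2583 in sham + Lrg1-/- and 2847, 1304 and 991 in MCAO/R + Lrg1-/-. It was lower in both MCAO/R + WT libraries, whereas the Lrg1-/- groups overlapped. Cnn1, calponin, an actin-binding regulator of contraction, was at 292, 228 and 198 in sham + WT and at 226 and 95.4 in MCAO/R + WT. In Lrg1-/- mice it went the other way from Acta2 and Pln, with 226, 217 and 209 after sham surgery and 266, 326 and 281 after MCAO/R. Mustn1, a small nuclear protein of muscle, was at 832, 760 and 790 in sham + WT and at 810 and 718 in MCAO/R + WT, which overlapped, and at 715 to 778 in sham + Lrg1-/- and 398 to 704 in MCAO/R + Lrg1-/-.

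The question of the first comparison was how smooth muscle cells of WT mice differed after MCAO/R, and none of the cells in these 5 libraries were haemoglobin-rich. Of 12676 genes tested, 213 were higher and 174 lower (3.05% of all genes: 1.68% higher and 1.37% lower) by edgeR's quasi-likelihood test at a Benjamini-Hochberg adjusted p below 0.05. Fabp4, Angptl4, Klf15 and Cp were among those that rose, and the CGRP receptor subunit Ramp1, the muscle protein Fbxl22 and 26 genes of the respiratory chain among those that fell. Enriched genes were those at least as high in smooth muscle cells as in the other retained cells. Among these 4659 genes 122 were higher and 217 lower (2.62% and 4.66%). In the cells at 1% or more 925 genes passed (455 higher, 470 lower, 8.15% of 11349, being 4.01% higher and 4.14% lower). Of the 51 genes named in this comparison, 49 passed there too. Libraries without overlap in CPM (UMIs per 1000000 after TMM scaling) were a condition for naming most of them, so that nothing is read from their separation, and 41.1% of all genes met it. Only 9 of the 51 passed in each of the 5 fits that left out 1 of these libraries (Fabp4, Angptl4, Galnt15, Klf15, Tent5b, Rasl10b, Ramp1, Rrm1 and Ndufa13), and 18 passed in none of them. The count of genes fell to 62 without MCAO/R + WT replicate 1, to 74 without replicate 2, and to 95, 97 and 75 without sham + WT replicate 1, 2 and 3.

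The largest rises among genes at least as high in smooth muscle cells as in the other retained cells are given first. Angptl4 (ENSMUSG00000002289, chr17:33773750-33781830 in mm10), a secreted inhibitor of lipoprotein lipase, was at 1.84, 1.75 and 2.07 CPM in sham + WT and at 208 and 126 after MCAO/R. The log2 fold change was 6.42 ± 0.42 (SE, adjusted p = 3.4e-05). Fabp4, a carrier of fatty acids, had 3 UMIs over the 3 sham libraries and 267 over the 2 MCAO/R libraries. That is a ratio of 129, with a 95% interval of 43.5 to 628 for counting error alone. Klf15, a Kruppel-like transcription factor of metabolic genes, was at 3.68, 4.82 and 6.62 CPM in sham + WT and at 56.1 and 69.3 after MCAO/R (log2 fold change 3.62 ± 0.26, adjusted p = 3.8e-05). Galnt15, a transferase that starts O-linked glycosylation, went from 4.6, 6.58 and 4.96 CPM to 98.9 and 81.0 (4.05 ± 0.30, adjusted p = 5.4e-05). Rasl10b, a Ras-like GTPase, rose by 2.59 ± 0.22 on the log2 scale, Tent5b, an RNA nucleotidyltransferase, by 3.33 ± 0.37, and Kcnt1, a sodium-activated potassium channel, by 3.16 ± 0.50 (adjusted p = 0.00015, 0.0014 and 0.0091). Adamts2, a procollagen protease, and Aebp1, a secreted collagen-binding protein, rose by 2.38 ± 0.37 and 2.31 ± 0.33 (adjusted p = 0.0087 and 0.0054).

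Of 43 receptor and signalling genes of vessel tone 2 were higher and 1 lower, beside 1.68% and 1.37% over all genes, with 3 higher and 4 lower of 40 in the cells at 1% or more. Ramp1 (ENSMUSG00000034353, chr1:91179822-91225196), the subunit that makes the calcitonin receptor-like receptor respond to the dilator CGRP, was at 159, 153 and 162 CPM in sham + WT. After MCAO/R it was at 22.6 and 27.0 (log2 fold change -2.66 ± 0.16, adjusted p = 2.3e-05). Ednrb, the endothelin receptor B, rose from 5.06, 5.26 and 4.96 CPM to 60.1 and 18.5 (2.91 ± 0.66, adjusted p = 0.039), and the 2 MCAO/R libraries differed widely. Htr1b, a serotonin receptor, rose from 11.9, 18.4 and 17.8 CPM to 42.3 and 44.8 (1.43 ± 0.34, adjusted p = 0.047). The call for Ednrb stood in 1 and that for Htr1b in 0 of the 5 fits with a library left out. The median over the 43 genes was -0.05, beside 0.00 over all genes.

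Of 42 contractile genes outside the rule, 0 were higher and 2 lower in WT mice, beside 1.68% and 1.37% over all genes. The median log2 fold change was -0.25, beside 0.00 over all genes, and the fold change was above 0 for 10 of the 42. The 2 that fell, Susd5 and Wtip, are not contractile proteins: Susd5 is a sushi-domain membrane protein and Wtip a LIM-domain protein of cell junctions. Susd5 was at 108, 87.3 and 118 CPM in sham + WT and at 17.7 and 27.4 after MCAO/R (-2.19 ± 0.39, adjusted p = 0.015). Wtip went from 853, 996 and 1042 CPM to 235 and 372 (-1.67 ± 0.32, adjusted p = 0.021). The list had, in the cells at 1% or more, 1 gene higher and 7 lower (median -0.09), beside 4.01% and 4.14% over all genes. Without replicate 5 of MCAO/R + Lrg1-/-, a library outside this comparison that enters the shared estimate of spread, 13 of the 42 were lower (3.56% of all genes were). Lmod1, leiomodin, which nucleates actin filaments, was at 402, 413 and 361 CPM in sham + WT and at 525 and 490 after MCAO/R (0.37 ± 0.23, adjusted p = 0.45). Des, desmin, was at 651, 660 and 676 and then at 903 and 768 (0.33 ± 0.22, adjusted p = 0.49), and it passed in the cells at 1% or more (0.49, adjusted p = 0.033).

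Of 28 regulators tested, Mef2c alone passed, beside 1.68% higher and 1.37% lower over all genes. In the cells at 1% or more 1 was higher and 4 lower, beside 4.01% and 4.14% over all genes. Mef2c, a transcription factor of muscle differentiation, was at 617, 682 and 911 CPM in sham + WT and at 366 and 390 after MCAO/R (-0.96 ± 0.19, adjusted p = 0.022). Myocd, myocardin, was at 224, 304 and 358 CPM and then at 428 and 380, without overlap but not past the threshold (0.45 ± 0.28, adjusted p = 0.45). Srf differed by -0.40 ± 0.37 (adjusted p = 0.64). Klf4, which represses contractile genes when smooth muscle cells dedifferentiate, differed by -0.17 ± 0.22 (adjusted p = 0.76), and Notch3, the Notch receptor of arterial smooth muscle, by 0.12 ± 0.24 (adjusted p = 0.87). A p that misses the threshold does not show that these 4 genes stayed level.

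Among the other genes that fell, 3 are linked to muscle or to nucleotide synthesis. Fbxl22 (chr9:66508459-66514593), an F-box protein of the muscle sarcomere, was at 208, 151 and 223 CPM in sham + WT and at 20.2 and 22.0 after MCAO/R (-3.19 ± 0.49, adjusted p = 0.0075). Olfr558, an olfactory receptor found on vascular smooth muscle, went from 123, 116 and 146 CPM to 37.9 and 30.2 (-1.92 ± 0.30, adjusted p = 0.0078). Rrm1, the large subunit of ribonucleotide reductase, went from 94.2, 113 and 103 CPM to 18.2 and 23.1 (-2.31 ± 0.28, adjusted p = 0.0019). Separate values were a condition for naming these 3 genes, and nothing is read from them. Nrep, a neuronal regeneration-related protein, fell by 2.41 on the log2 scale (SE 0.37, adjusted p = 0.0075), and Ube2t, a ubiquitin-conjugating enzyme of DNA repair, fell by 3.05 (SE 0.54, adjusted p = 0.015).

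**Figure D2:**
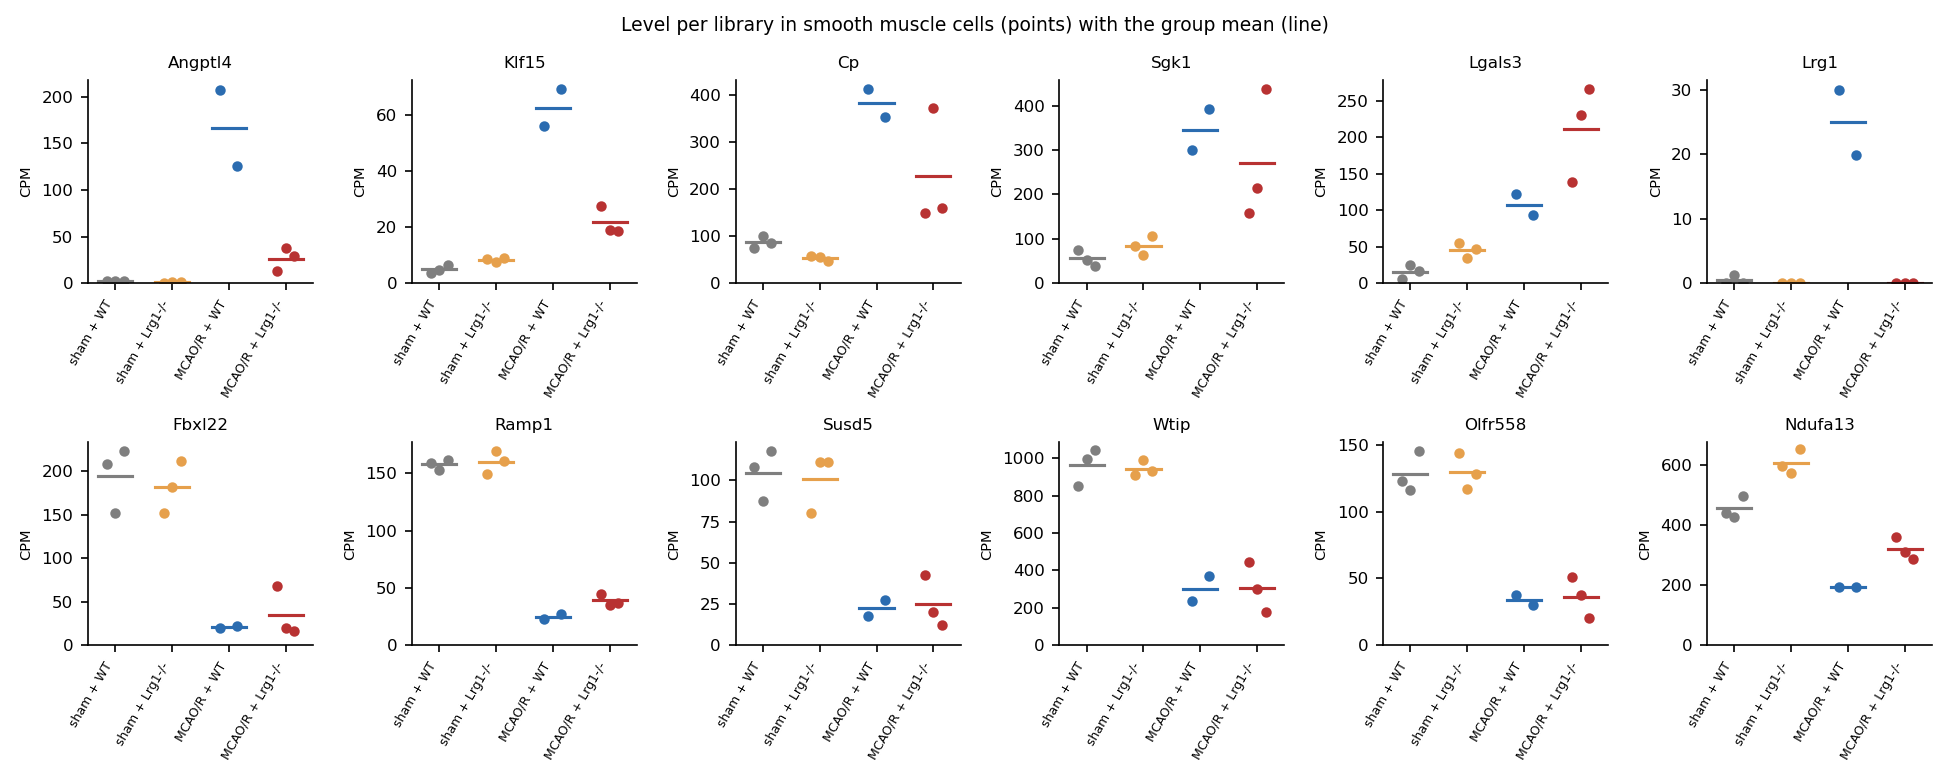
CPM per library (y axis, from 0) of 12 genes in smooth muscle cells, with each point 1 library and each line a group mean over 2 or 3 libraries. Angptl4, Klf15, Cp, Sgk1, Lgals3 and Lrg1 are higher in both MCAO/R + WT libraries than in every sham + WT library, and Fbxl22, Ramp1, Susd5, Wtip, Olfr558 and Ndufa13 lower.

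Of 55 matrix genes 4 rose and 1 fell (median 0.21), beside 1.68% higher and 1.37% lower over all genes, with 10 higher and 2 lower of 48 in the cells at 1% or more (4.01% and 4.14% over all genes). The 9 fibroblast markers summed to 798, 831 and 795 UMIs per 1000000 in sham + WT and to 1840 and 2155 in MCAO/R + WT, and in the cells at 1% or more to 723 to 780 and to 1872 and 2078. In Lrg1-/- mice they summed to 976, 1252 and 843 after sham surgery and to 1483, 2563 and 2219 after MCAO/R. Of the 9 markers 4 were tested and 0 passed in WT mice. Lum was at 0 in both MCAO/R + WT libraries and also in sham + WT replicates 2 and 3. The part of fibroblast RNA in the matrix genes, Adamts2 and Aebp1 was not tested. Lgals3, galectin-3, rose from 5.97, 24.6 and 16.5 CPM to 122 and 93.1 (2.76 ± 0.41, adjusted p = 0.0067), and Plat, tissue plasminogen activator, rose from 140, 141 and 148 CPM to 298 and 302 (1.07 ± 0.20, adjusted p = 0.018). Spp1, osteopontin, which microglia also make, rose from at most 3.68 CPM to 176 and 67.9 (5.67 ± 1.09, adjusted p = 0.021), and it did not pass in the cells at 1% or more (4.52, adjusted p = 0.063). Col8a1, a short-chain collagen of vessel walls, rose by 0.82 ± 0.19, and Serpine2, an inhibitor of thrombin and plasminogen activators, fell by 1.10 (SE 0.26, adjusted p = 0.046 and 0.048). Of 47 cytokine and inflammatory genes 3 rose (Lcn2, Il6ra and Tnfrsf12a) and Cxcl12 fell, with 7 higher and 3 lower of 46 in the cells at 1% or more. Lcn2, lipocalin-2, had 3 UMIs over the sham libraries and 252 after MCAO/R, a ratio of 121 (95% counting interval 41.1 to 593). Il6ra, the interleukin-6 receptor, rose from 24.4, 30.3 and 34.7 CPM to 76.8 in both MCAO/R libraries (1.36 ± 0.21, adjusted p = 0.0074). Cxcl12, a chemokine that holds leukocytes and progenitors, fell from 25.3, 28.9 and 26.1 CPM to 7.38 and 9.59 (-1.64 ± 0.36, adjusted p = 0.037).

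Lrg1 (ENSMUSG00000037095, chr17:56119678-56122001), the gene removed in the knockout, also checks the genotypes of the MCAO/R libraries. It had 3 UMIs in the sham + WT cells, all in replicate 2, and 117 in MCAO/R + WT, at 30 and 19.9 CPM. The ratio was 56.4 (95% counting interval 18.8 to 277, adjusted p = 0.018 by edgeR). In the 6 Lrg1-/- libraries it had 0 UMIs, which for MCAO/R + Lrg1-/- is at least 74.3-fold lower than MCAO/R + WT against a floor of 3 counts over the group. In the sham libraries it cannot tell the genotypes apart, since sham + WT held only 3 UMIs. In the TGF-beta and BMP list of 45 genes, Lrg1 and Ccn2 were higher and Bmp6 and Pmepa1 lower, beside 1.68% higher and 1.37% lower over all genes. In the cells at 1% or more 7 of 44 were higher and 2 lower, beside 4.01% and 4.14% over all genes. Ccn2, connective tissue growth factor, was at 192, 196 and 222 CPM in sham + WT and at 829 and 629 after MCAO/R (1.84 ± 0.41, adjusted p = 0.038). Pmepa1, which TGF-beta induces and which then dampens it, went from 188, 157 and 128 CPM to 84.7 and 81.0 (-0.93 ± 0.18, adjusted p = 0.019). Bmp6, a BMP ligand, went from 46.9, 56.1 and 49.6 CPM to 23.1 and 12.4 (-1.54 ± 0.31, adjusted p = 0.026).

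Of 36 hypoxia-responsive genes 4 rose in WT mice (Angptl4, Hif3a, Bnip3 and Slc2a1) and 0 fell, beside 1.68% higher over all genes, and in the cells at 1% or more 8 were higher and 3 lower. Slc2a1, the glucose transporter GLUT1, went from 56.1, 57.0 and 60 CPM to 153 and 156 (1.42 ± 0.24, adjusted p = 0.012), and Bnip3, a mitophagy receptor, from 14.2, 11.0 and 11.6 CPM to 29.0 and 36.6 (1.42 ± 0.30, adjusted p = 0.028). Of 30 metallothionein, iron and antioxidant genes 5 rose and 1 fell, with 6 and 1 of 29 in the cells at 1% or more. Cp, the iron oxidase ceruloplasmin, was at 75.4, 100 and 85.2 CPM and then at 414 and 353 (2.14 ± 0.33, adjusted p = 0.0075). Mt2, metallothionein-2, rose by 2.44 ± 0.41 (adjusted p = 0.012). Mt3, an astrocyte and neuron metallothionein, passed over all cells (2.37, adjusted p = 0.015), where the astrocyte list stood at 198, 137 and 102 UMIs per 1000000 in sham + WT and at 448 and 523 in MCAO/R + WT. It did not pass in the cells at 1% or more (-0.09, adjusted p = 0.94), where that list stood at 48 to 184 and at 99.5 and 135. Mt3 is itself a member of that list, so the list sum moves with it, and the source of Mt3 was not tested. Sgk1, a kinase induced by glucocorticoids and salt, rose from 75.4, 53.1 and 38.9 CPM to 300 and 392 (2.64 ± 0.39, adjusted p = 0.0067). Klf6, an early response factor, rose by 1.01 ± 0.14 (adjusted p = 0.0055). None of 29 interferon-stimulated genes passed in either direction, with 3 higher in the cells at 1% or more.

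Oxidative phosphorylation was the list with the most calls in WT mice: 26 of 85 nuclear genes of the respiratory chain were lower and 0 higher (median -0.55). Over all genes 1.37% were lower. Without sham + WT replicate 3, 21 genes in all were lower, so that not all of these 26 calls stood. Most of the 26 were lost when MCAO/R + WT replicate 1 or 2 was left out, which leaves 1 library in that group. In the cells at 1% or more 53 of 82 were lower (median -0.59), beside 4.14% over all genes. Ndufa13, a subunit of complex I, was at 443, 429 and 498 CPM in sham + WT and at 196 and 195 after MCAO/R (-1.22 ± 0.14, adjusted p = 0.0016). Cox8a of complex IV went from 1134, 1177 and 1229 CPM to 628 and 551 (-1.0 ± 0.17, adjusted p = 0.011), and Atp5o of ATP synthase from 214, 198 and 247 CPM to 118 and 109 (-0.96 ± 0.16, adjusted p = 0.013). Of the 13 mitochondrially encoded genes 0 passed (median -0.10). Of 81 cytosolic ribosomal protein genes 0 passed in either direction (median -0.09).

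The genes Anxa2, Itgb5, Cldn11 and Pcdh9 were listed because the study discusses them. It reports higher levels in blood-brain barrier cells of Lrg1-/- than of WT mice after MCAO/R, and in protein staining of endothelial cells. The values in this paragraph are for MCAO/R against sham surgery in WT mice, which is another comparison. Anxa2, a calcium-dependent membrane protein, was at 84.1, 89.9 and 92.3 CPM in sham + WT and at 215 and 161 in MCAO/R + WT (1.08 ± 0.21, adjusted p = 0.021). Itgb5, integrin beta 5, differed by 0.18 ± 0.14 (adjusted p = 0.57), the tight junction gene Cldn11 by -0.35 ± 0.80 and the protocadherin Pcdh9 by 0.11 ± 0.65 (adjusted p = 0.88 and 0.96). Cldn11 and Pcdh9 are also oligodendrocyte genes, and the oligodendrocyte list ranged from 1008 to 3406 UMIs per 1000000 over the 5 WT libraries. Its part in these values was not tested.

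In Lrg1-/- mice, 243 genes were higher and 247 lower after MCAO/R (3.87% of 12676 genes, 1.92% higher and 1.95% lower). Without the library that stood apart the counts were 156 and 134 (2.34%, 1.26% higher and 1.08% lower), and in the cells at 1% or more 445 and 396 (7.41%, 3.92% higher and 3.49% lower). Angptl4, Cp and Anxa2 were among the genes that rose, and Ramp1, Fbxl22, Myl9 and potassium channel genes among those that fell. Both this and the WT comparison have control groups of their own. The naming again required libraries without overlap for most genes, which 20.9% of all genes met. Of the 46 genes named here, 45 passed in the cells at 1% or more and 39 without the library that stood apart. In each of the 6 fits with 1 library left out, 10 of them passed (Angptl4, Ramp1, Olfr558, Spp1, Ndufa13, Anxa2, Tesc, Rnd1, Ptgis and Carmil1). The count of genes was 103, 39 and 176 without sham + Lrg1-/- replicate 1, 2 and 5, and 1187 without MCAO/R + Lrg1-/- replicate 1. With these 6 libraries alone in the fit 20 genes passed.

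Of the 42 contractile genes 7 were lower and 0 higher in Lrg1-/- mice after MCAO/R (median -0.50, beside 0.02 over all genes). Over all genes 1.95% were lower and 1.92% higher. Myl9, whose promoter is printed above, was at 4236, 5142 and 5688 CPM in sham + Lrg1-/- and at 3414, 2313 and 1572 after MCAO/R (-1.05 ± 0.23, adjusted p = 0.033). Tpm2, a tropomyosin of the thin filament, went from 3621, 3896 and 3754 CPM to 2685, 2460 and 1622 (-0.74 ± 0.18, adjusted p = 0.043). Nexn, an actin-binding protein of the Z-disc, fell by 1.17 (SE 0.25) and Rbpms2, an RNA-binding protein of smooth muscle, by 1.11 (SE 0.22, adjusted p = 0.033 and 0.023). The lowest value of each of these 4 genes was that of replicate 5, where Acta2, Myh11, Tagln, Pln and Mustn1 of the rule genes also had their lowest levels. Without it Myl9 was lower by 0.81 and still passed, and 6 of the 42 did, beside 1.26% higher and 1.08% lower over all genes. In the cells at 1% or more 12 were lower and 2 higher (median -0.30), beside 3.49% and 3.92% over all genes.

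Potassium channels relax smooth muscle by lowering calcium entry. Of 37 channel and calcium genes 3 were lower and 0 higher (median -0.24), beside 1.95% lower over all genes, with 7 lower and 2 higher in the cells at 1% or more. Kcnma1 and Kcnmb1, the pore and the beta 1 subunit of the large-conductance calcium-activated channel, were at 237, 271 and 221 CPM and at 88.5, 98.1 and 106 CPM in sham + Lrg1-/-. After MCAO/R they were at 169, 116 and 91.0 CPM and at 60.1, 47.3 and 35.7 CPM, below all sham values (-0.98 ± 0.20 and -1.07 ± 0.19, adjusted p = 0.024 and 0.016). Kcna5, a voltage-gated channel, fell by 1.34 (SE 0.30, adjusted p = 0.034), and it lost the call without replicate 5 (-1.10). Ptgis, prostacyclin synthase, went from 277, 268 and 200 CPM to 81.4, 74.6 and 61.9 (-1.80 ± 0.20, adjusted p = 0.0021). Ramp1 went from 150, 170 and 161 CPM to 45.1, 35.2 and 37.3 (-2.05 ± 0.13, adjusted p = 6e-05), and Fbxl22 from 151, 181 and 211 CPM to 67.7, 19.7 and 16.6 (-2.63 ± 0.42, adjusted p = 0.011). Of the transcription factors, Hes1, a Notch target, fell by 1.38 (SE 0.29) and Foxc1, a forkhead factor of vessel mural cells, by 0.86 (SE 0.19, adjusted p = 0.026 and 0.032).

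Among genes that rose in Lrg1-/- mice, Angptl4 was at 0.355, 1.52 and 1.12 CPM in sham and at 12.5, 37.6 and 28.7 after MCAO/R (5.04 ± 0.56, adjusted p = 0.0021). Cp went from 58.3, 54.8 and 47.2 CPM to 149, 374 and 159 (2.09 ± 0.32, adjusted p = 0.010), and Anxa2 from 81.0, 70.0 and 106 CPM to 195, 297 and 232 (1.52 ± 0.20, adjusted p = 0.0054). Pde10a, a phosphodiesterase that breaks down cAMP and cGMP, went from 24.9, 18.3 and 7.87 CPM to 56.4, 253 and 134 (3.03 ± 0.48, adjusted p = 0.011). None of these groups overlapped, which was a condition for naming most genes and was met by 20.9% of all genes. Timp1, an inhibitor of matrix proteases, was at 0.710, 1.52 and 0 CPM and then at 12.5, 69.4 and 22.0 (5.42 ± 1.07, adjusted p = 0.023), and Adamts9, a protease of versican, rose by 1.79 ± 0.37 (adjusted p = 0.026). Beside 1.92% higher over all genes, 5 of 55 of the matrix list rose and 0 fell, with 14 higher and 3 lower of 48 in the cells at 1% or more. Of the cytokine list 8 of 47 rose and 2 fell, with 3 of 46 rising without replicate 5 and 16 of 46 in the cells at 1% or more. Hmox1, haem oxygenase, was at 313 CPM in replicate 5 of MCAO/R + Lrg1-/- against 23.8 and 52.5 in replicates 1 and 2, and its call (3.51 ± 0.83, adjusted p = 0.041) was lost without replicate 5 (1.78). Spp1 was at 163, 2535 and 1917 CPM, in libraries where the microglia and macrophage list stood at 3497, 4007 and 11158 UMIs per 1000000, and the source of Spp1 was not tested. Of oxidative phosphorylation 17 of 85 genes were lower and 1 higher (median -0.37), beside 1.95% lower over all genes. In the cells at 1% or more 41 of 82 were lower (3.49% of all genes were), and without replicate 5 it was 7 (1.08% of all genes).

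The comparisons of genotype have to be read beside the RNA of other cells, which differed between WT and Lrg1-/- libraries as a whole. Within the smooth muscle cells, the 5 red blood cell transcripts summed to 16.5 to 36.5 UMIs per 1000000 in the 5 WT libraries and to 11565 to 48276 in the 6 Lrg1-/- libraries. Within the cells at 1% or more they summed to 13.5 to 29.6 and to 2084 to 18535. The 8 choroid plexus transcripts stood at 194 to 3876 in WT and at 9243 to 34700 in Lrg1-/- libraries, and in the cells at 1% or more at 111 to 546 and 3103 to 7792. Microglia and macrophage markers stood at 1236 to 1960 in WT and 2676 to 11158 in Lrg1-/- libraries. The pericyte list, in contrast, was lowest in replicate 5 of MCAO/R + Lrg1-/-, at 1008 against 2273 to 4489 elsewhere. All 5 red blood cell genes were called higher in both genotype comparisons, as were 9 of 13 microglia genes after MCAO/R and 6 of 7 choroid plexus genes after sham surgery. Over all genes 5.28% were called higher after MCAO/R and 2.55% after sham surgery. The methods of the study describe lysis of red blood cells during preparation. The part of these cells in the other genotype differences was not tested.

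**Figure D3:**
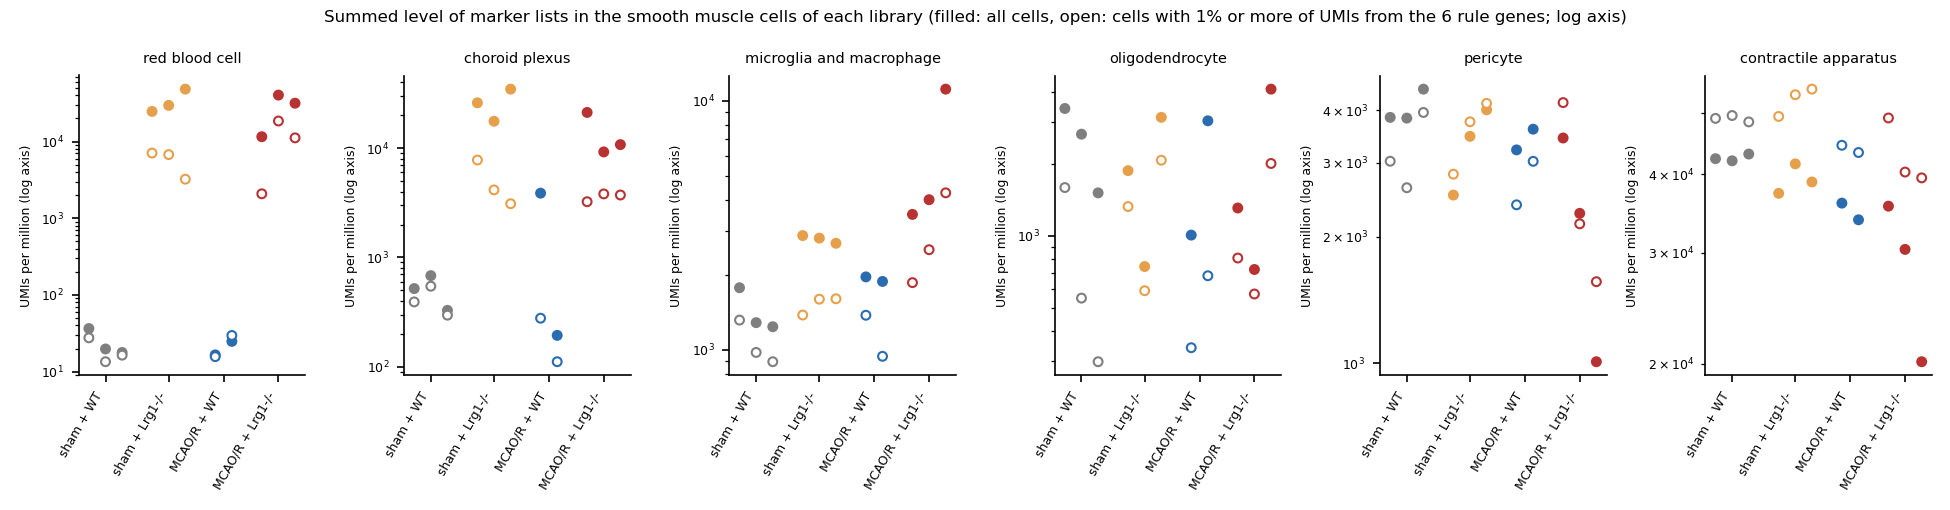
Summed level of 6 marker lists in the smooth muscle cells of each library (UMIs per 1000000, logarithmic axis), filled for all cells and open for those with 1% or more of UMIs from the 6 rule genes. Red blood cell transcripts are at 36.5 or less in WT and at 2084 or more in Lrg1-/- libraries by either count, while the contractile list of sham libraries overlaps between genotypes in the cells at 1% or more and is lower in Lrg1-/- libraries over all cells.

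After MCAO/R, 669 genes were higher and 455 lower in Lrg1-/- than in WT mice (8.87% of 12676 genes, 5.28% higher and 3.59% lower), and after sham surgery 323 were higher and 193 lower (4.07%, 2.55% higher and 1.52% lower). Ribosomal and respiratory chain genes were among those higher in both, and Angptl4, Ccn2 and Ccn3 among those lower after MCAO/R. These comparisons share their libraries with the comparisons of surgery above. With the cells at 1% or more there were 671 and 557 after MCAO/R (10.8%, 5.91% higher and 4.91% lower) and 316 and 454 after sham surgery (6.78%, 2.78% higher and 4.0% lower), so that more genes were lower than higher in the sham comparison there. Leaving out the haemoglobin-rich cells gave 609 and 418 after MCAO/R (8.08%) and 383 and 252 after sham surgery (5.0%). Among the 4659 genes enriched in smooth muscle cells the split turned. It was 111 higher and 248 lower after MCAO/R (2.38% and 5.32%), and 27 and 65 after sham surgery (0.58% and 1.4%). With the 5 MCAO/R libraries alone in the fit 5 genes passed. Without MCAO/R + WT replicate 2 just 32 genes passed after MCAO/R, and 167 without replicate 1. Of the 40 genes named after MCAO/R, 9 passed in each of the 5 fits that left out 1 of these libraries (Angptl4, Lpl, Lgals1, Ccn3, Ntn1, Atg4a, Per2, Sdf2l1 and Hba-a1). The condition of no overlap was met by 37.3% of all genes. Without sham + WT replicate 1, 2 or 3, or sham + Lrg1-/- replicate 1, 2 or 5, the sham count was 160, 111, 132, 158, 317 and 173.

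Ribosomal protein genes were higher in Lrg1-/- smooth muscle cells in both settings: 50 of 81 after MCAO/R (median 0.56) and 44 of 81 after sham surgery (median 0.50), with 0 lower in either. Over all genes 5.28% were higher after MCAO/R and 2.55% after sham surgery. In the cells at 1% or more 30 and 57 ribosomal genes were higher, beside 5.91% and 2.78% over all genes. Rpl5, a protein of the large subunit, was at 337, 398 and 405 CPM in sham + WT and at 365 and 331 in MCAO/R + WT. In sham + Lrg1-/- it was at 861, 717 and 698, and in MCAO/R + Lrg1-/- at 652, 661 and 801, above all 5 WT libraries (1.02 ± 0.16 after MCAO/R and 1.0 ± 0.14 after sham surgery, adjusted p = 0.0060 and 0.0036). Ribosomal protein genes have near-identical pseudogenes, so that reads of single members can be split between copies. Respiratory chain genes were higher in Lrg1-/- mice too, 42 of 85 after MCAO/R (median 0.62) and 24 of 85 after sham surgery (median 0.46), with 0 lower, and 39 and 28 of 82 in the cells at 1% or more. The shares over all genes are those given for the ribosomal genes. By the total given above, most calls of both lists after MCAO/R were lost with the MCAO/R libraries alone in the fit. Ndufa13 was at 362, 312 and 288 CPM in MCAO/R + Lrg1-/- against 196 and 195 in MCAO/R + WT (0.71 ± 0.14, adjusted p = 0.014), and at 599, 574 and 654 in sham + Lrg1-/- against 443, 429 and 498 in sham + WT, which did not pass (0.42, adjusted p = 0.086).

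Of 32 heat shock and endoplasmic reticulum stress genes 11 were higher and 0 lower in Lrg1-/- mice after MCAO/R (median 0.35), beside 5.28% and 3.59% over all genes, with 11 higher and 1 lower of 31 in the cells at 1% or more. Sdf2l1, a cochaperone of the endoplasmic reticulum, was at 68.9, 58.7 and 88.4 CPM against 11.8 and 8.17 in MCAO/R + WT (2.87 ± 0.28, adjusted p = 0.00082). Calr, the calcium-binding chaperone calreticulin, was at 282, 339 and 463 CPM against 145 and 113 (1.49 ± 0.21, adjusted p = 0.0044). Glycolytic genes made up 8 of the 9 hypoxia-list genes that were higher (Eno1, Pgk1, Pkm, Ldha, Pgam1, Gapdh, Tpi1 and Aldoa), and Ldha, lactate dehydrogenase A, was at 293, 446 and 299 CPM against 220 and 151 (0.91 ± 0.21, adjusted p = 0.025). Lpl, lipoprotein lipase, was at 105, 163 and 140 CPM against 36.4 and 40.2 (1.84 ± 0.21, adjusted p = 0.0013). Its secreted inhibitor Angptl4, which is on the hypoxia list, was in turn lower, at 12.5, 37.6 and 28.7 CPM against 208 and 126 (-2.55 ± 0.31, adjusted p = 0.0020). Both separated the 2 groups fully, which was a condition for naming them and was met by 37.3% of all genes. Il33, an alarmin of barrier tissues, was at 42.6, 49.0 and 72.4 CPM against 6.40 and 7.46 (2.99 ± 0.62, adjusted p = 0.016), and Ptgs2, cyclooxygenase 2, at 47.6, 59.7 and 40.9 CPM against 5.91 and 3.20 (3.47 ± 0.61, adjusted p = 0.0088).

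Genes that were lower in Lrg1-/- mice after MCAO/R included the matricellular proteins Ccn2 and Ccn3. Ccn2 was at 236, 253 and 69.8 CPM against 829 and 629 in MCAO/R + WT (-1.99 ± 0.42, adjusted p = 0.017), and the related Ccn3 at 16.3, 28.7 and 18.4 CPM against 227 and 81.0 (-2.82 ± 0.43, adjusted p = 0.0054). Without replicate 5 Ccn2 was lower by 1.57 and still passed. Lox, which crosslinks collagen and elastin, was at 53.9, 48.3 and 20.8 CPM against 88.6 and 93.1 (-1.23 ± 0.33, adjusted p = 0.039), and Plat at 154, 169 and 103 CPM against 298 and 302 (-1.09 ± 0.20, adjusted p = 0.010). Pmepa1 was higher, at 140, 163 and 142 CPM against 84.7 and 81.0 (0.85 ± 0.18, adjusted p = 0.016). In the TGF-beta and BMP list of 45 genes 2 were higher and 3 lower, Lrg1 among them (median -0.18), beside 5.28% and 3.59% over all genes, with 2 higher and 7 lower of 44 in the cells at 1% or more. Vcl, whose promoter is printed above, was at 633, 605 and 411 CPM against 1084 and 1100 (-0.99 ± 0.23, adjusted p = 0.026), and with Filip1l it made up the 2 of 42 contractile genes that were lower, with 3 higher and 3 lower in the cells at 1% or more. Of 43 vasoactive receptor and cGMP or cAMP signalling genes 4 were higher (Pde3b, Rgs2, Ramp2 and Ramp1) and 4 lower (Pde4d, Gucy1a2, Arhgap42 and Adora2a), with 2 higher and 3 lower of 40 in the cells at 1% or more. Of the channel list 4 of 37 were lower: Abcc9, Kcna5, Itpr1 and Stim1, beside 3.59% over all genes, with 1 higher and 8 lower in the cells at 1% or more. Itpr1, a calcium release channel of the endoplasmic reticulum, was at 213, 205 and 134 CPM against 309 and 324 (-0.80 ± 0.19, adjusted p = 0.026), and Stim1, the calcium sensor of that compartment, at 139, 128 and 106 CPM against 207 and 212 (-0.77 ± 0.14, adjusted p = 0.0091). Abcc9, the sulfonylurea receptor of mural cells and a pericyte marker, did not pass in the cells at 1% or more (-1.94, adjusted p = 0.31).

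In sham mice as well, some of these genes differed by genotype. Per2, a repressor of the circadian clock, was at 29.9, 28.1 and 34.7 CPM in sham + WT against 12.4, 9.13 and 8.99 in sham + Lrg1-/- (-1.54 ± 0.29, adjusted p = 0.016, passing in 0 of the 6 fits with a library left out), and at 106 and 79.6 against 20, 37.6 and 19.8 after MCAO/R (-1.81 ± 0.27, adjusted p = 0.0046). Cry2, another clock repressor, was at 110, 145 and 168 CPM against 60, 62.4 and 51.7 in sham mice (-1.27 ± 0.21, adjusted p = 0.0091). The time of day at which the brains were taken is not given in the sources used here. Carmn, a long noncoding RNA of smooth muscle, was at 120, 86.8 and 130 CPM against 33.7, 52.5 and 29.2 (-1.54 ± 0.25, adjusted p = 0.0077). Cxcl10, an interferon-induced chemokine, was at 70.3, 46.5 and 35.2 CPM against 17.4, 5.32 and 1.12 (-2.33 ± 0.47, adjusted p = 0.019). Contractile genes did not pass in either direction between sham groups (0 of 42, median -0.05), with 2 higher and 1 lower in the cells at 1% or more. Of 37 channel genes Abcc9 alone was called lower, beside 1.52% over all genes, and in the cells at 1% or more 1 was higher and 9 lower.

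Whether MCAO/R acted differently on the smooth muscle cells of the 2 genotypes was tested as an interaction, and 0 of 12676 genes passed (0% called) by edgeR. At an unadjusted p below 0.05 there were 1004 genes, and DESeq2 called 31. The count in the cells at 1% or more was 0 as well. The values of Ramp1, Fbxl22, Angptl4 and Cp given above for each genotype are therefore shown side by side, and a difference of response between genotypes was not shown for them.

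**Figure D4:**
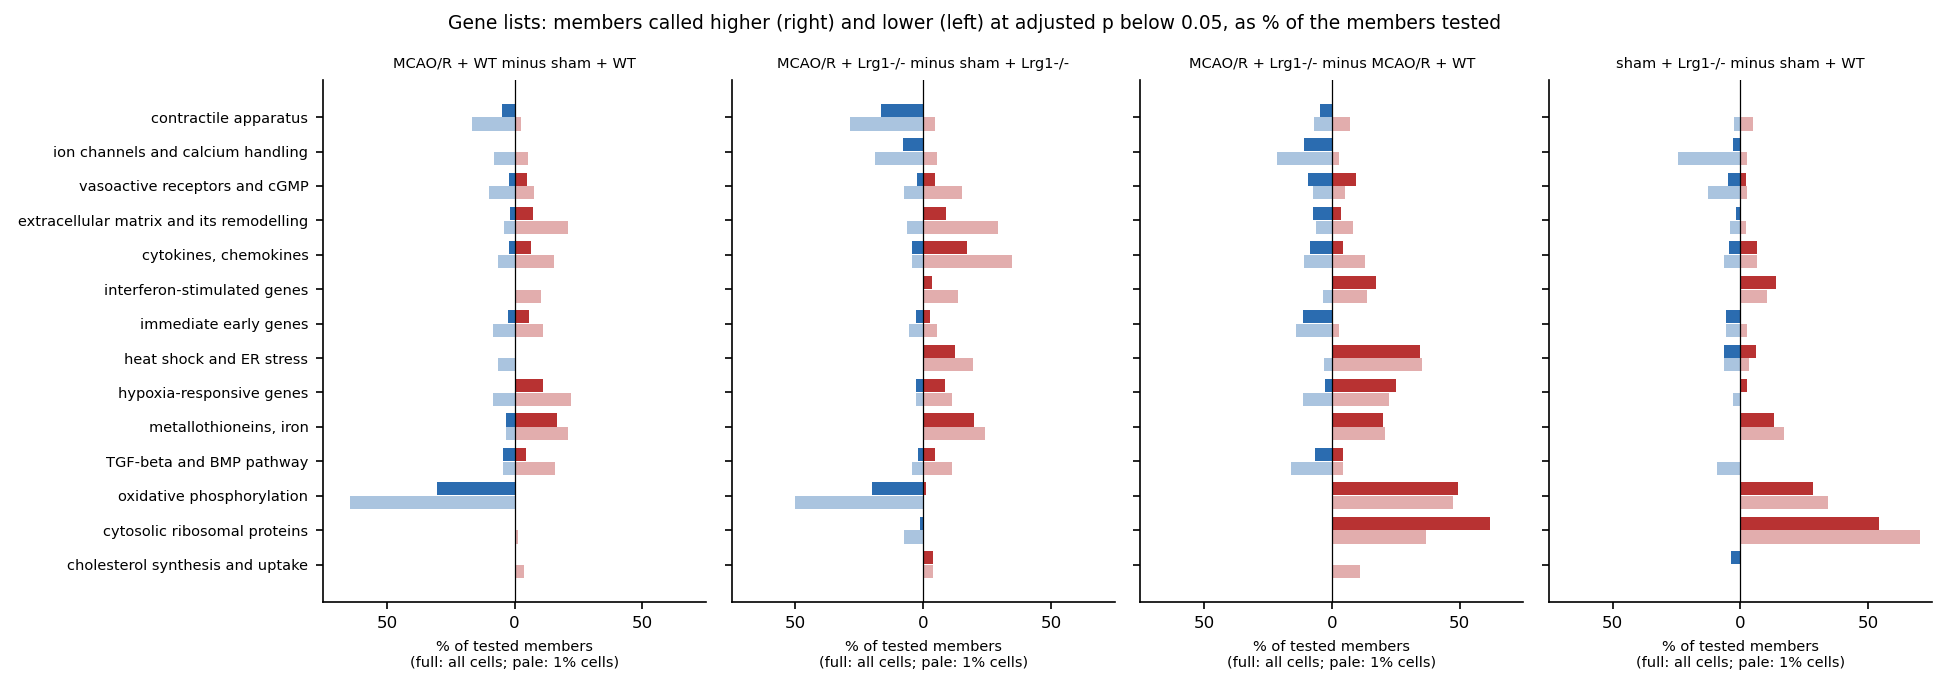
Members of 14 gene lists called higher (to the right) or lower (to the left) in each comparison, as a percentage of the members tested, for all smooth muscle cells (full colour) and for those with 1% or more of UMIs from the 6 rule genes (pale). Oxidative phosphorylation extends to the left in both MCAO/R comparisons and, with ribosomal proteins, to the right in both genotype comparisons.

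Smooth muscle cells were compared with 15543 endothelial cells of the same mice to see where their response to MCAO/R differed. In WT mice the response differed for 1194 of 15619 genes (7.64%), with 687 more positive (4.4%) and 507 more negative (3.25%) in smooth muscle cells. In Lrg1-/- mice it differed for 101 of 13347 (0.757%), with 209 to 3027 endothelial cells per library against 1580 to 2235 in WT mice. The WT count was 613 to 921, and the Lrg1-/- count 0 to 256, when 1 library was left out. Of the named genes, Angptl4 rose further in smooth muscle cells, by 3.46 ± 0.29 on the log2 scale (adjusted p = 0.0002), with a rise of 2.98 ± 0.33 in endothelial cells. Cp rose by 2.14 ± 0.33 in smooth muscle cells and differed by 0.31 ± 0.14 in endothelial cells, which did not pass there (difference of responses 1.89 ± 0.19, adjusted p = 0.00055). Ramp1 fell in smooth muscle cells and differed by -0.50 ± 0.39 in endothelial cells, where it was at 7.36 CPM in sham + WT (difference -2.09 ± 0.31, adjusted p = 0.0037). Ccn2 and Hif3a rose further in endothelial cells (differences -1.11 ± 0.17 and -2.46 ± 0.35, adjusted p = 0.0048 and 0.0031). Lrg1 rose in both cell types, and the difference of 0.78 ± 0.79 did not pass (adjusted p = 0.65).

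By list, 16 of 29 interferon-stimulated genes responded more positively in smooth muscle than in endothelial cells of WT mice and 0 less (median difference 0.76), and 3 and 0 of 29 in Lrg1-/- mice. Over all genes 4.4% responded more positively and 3.25% more negatively in WT mice, and 0.367% and 0.39% in Lrg1-/- mice. For Gbp2, a guanylate-binding protein, the level was at 11.9, 10.5 and 19.0 CPM and then at 26.1 and 15.6 in smooth muscle cells (0.57 ± 0.43, adjusted p = 0.55), while it fell in endothelial cells by 1.48 (SE 0.45, adjusted p = 0.048), a difference of 2.18 ± 0.26 (adjusted p = 0.0013). Of 84 respiratory chain genes 22 responded more negatively and 0 more positively in smooth muscle cells (median -0.37), and of 38 channel genes 12 and 1 (median -0.63). In Lrg1-/- mice these were 2 and 0 of 85 respiratory chain genes and 1 and 0 of 38 channel genes. Kcnma1 and Slc8a1, the sodium-calcium exchanger, rose in endothelial cells (1.87 ± 0.50 and 1.40 ± 0.43) and were lower in smooth muscle cells without passing there (differences -2.57 ± 0.21 and -2.22 ± 0.28, adjusted p = 0.00018 and 0.0016). Against pericytes of the same WT mice 131 of 12226 genes differed (1.07%). Of the interferon-stimulated list 1 of 29 responded more positively in smooth muscle cells (Ifitm1) and 1 more negatively (Isg15) than in pericytes (median -0.29), of the respiratory chain list 0 and 2 of 82 (median -0.36), and of the channel list 0 and 4 of 37 (median -0.27). Among the genes that differed from pericytes were Cp (0.95 ± 0.17, adjusted p = 0.0094), Wtip (-0.91 ± 0.20, adjusted p = 0.044) and Ccn2, which rose in smooth muscle cells and differed by -0.01 ± 0.21 in pericytes (difference 1.83 ± 0.24, adjusted p = 0.00096).

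**Figure D5:**
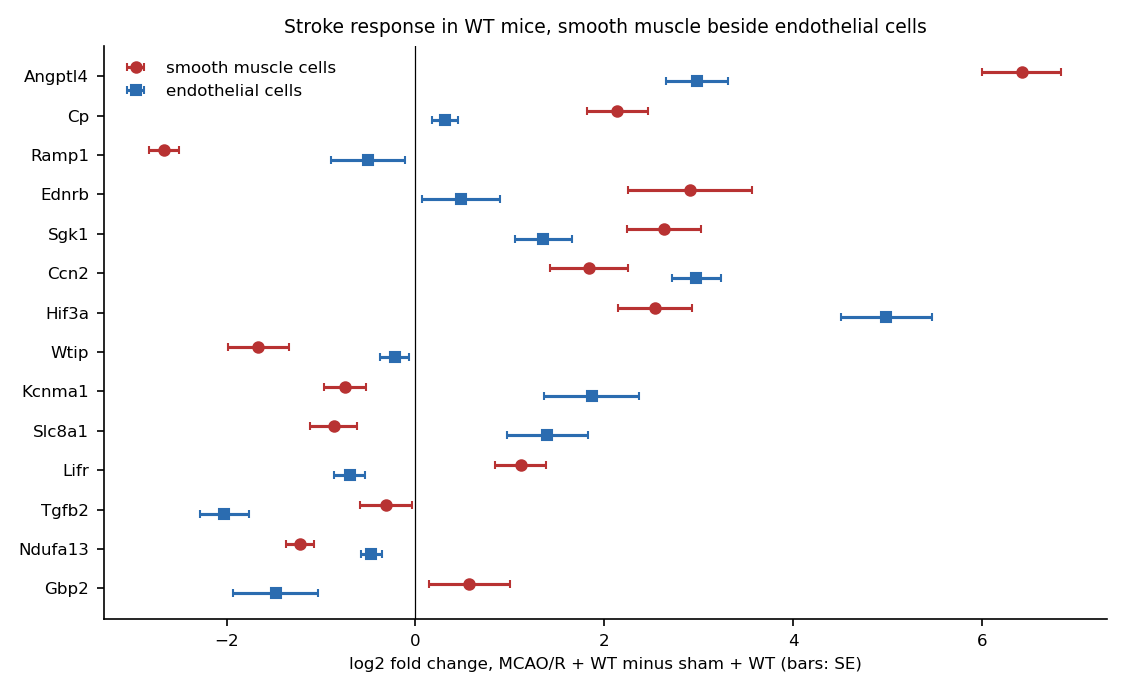
Log2 fold change of MCAO/R + WT over sham + WT (x axis, bars are SE) for 14 genes in smooth muscle cells (circles) and endothelial cells (squares) of the same 5 mice. Angptl4, Cp and Ednrb lie further to the right in smooth muscle cells, and Ramp1, Wtip, Kcnma1 and Slc8a1 further to the left.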

How the data were processed

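The deposited files were 10x Genomics count matrices with 1 library per mouse, made by the authors with Cell Ranger and STAR against mm10, per the labels. The matrix headers name version 7.0.1. The deposited counts are UMIs of 32285 genes in each cell and carry no normalisation. Cells with more than 500 genes, more than 1000 UMIs and less than 25% mitochondrial UMIs were kept, which is 3249 to 34181 per library, and the smooth muscle rule was applied to them. The cell annotation of the study was not used here. Scrublet, at an expected rate of 6%, marked so few cells that it cannot be said to have worked, and no cell was removed by it. Doublets were limited by the genes that the rule excludes. Total UMIs per library were 37159497 to 171813031, and 785629 to 5056951 in the smooth muscle cells.

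UMIs of the smooth muscle cells were summed per library and tested with edgeR's quasi-likelihood test (edgeR 4.0.16, R 4.3.3) after TMM normalisation and a filter on low counts by group. All 4 groups entered 1 fit. Calls needed an adjusted p (Benjamini-Hochberg) under 0.05 together with a change of over 0.25 on the natural log scale, in either direction. Standard errors are the fold change over the square root of its F statistic. CPM are scaled by TMM, whereas rule genes and marker lists are given as plain UMIs per 1000000 of the smooth muscle cells. Responses were compared between cell types by edgeR's test of the interaction of cell type and surgery. This used sums per library and cell type, with the mouse as a block. Shares of cells were compared with exact two-sided permutation tests. Intervals cover counting error only. The named genes were those called with the largest changes, 12 per direction, among genes without overlap between groups, with a mean of at least 30 CPM and a level in smooth muscle cells no lower than in the other retained cells, and the called members of the gene lists. Some genes that this rule names are not reported here. The members and lists were chosen with earlier results of these data known. Promoters came from RefSeq and gene positions from GENCODE. Alternatives included DESeq2 1.42.0, and the script was tested on simulated data.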

Additional observations from a re-analysis of the deposited data

Results flagged for a closer look

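The results given here stood out because the response to MCAO/R differed by a direct test between smooth muscle and endothelial cells of the same mice. In WT mice the test found 1194 genes, and in Lrg1-/- mice 101. Among the genes named in the report, the log2 response was more positive in smooth muscle cells for Angptl4 by 3.46, for Ednrb by 2.37, for Gbp2 by 2.18, for Cp by 1.89, for Lifr (a cytokine receptor) by 1.83, for Tgfb2 (a TGF-beta ligand) by 1.79 and for Sgk1 by 1.32. It was more negative in smooth muscle cells for Kcnma1 (-2.57), Hif3a (-2.46), Slc8a1 (-2.22), Ramp1 (-2.09), Wtip (-1.43), Ccn2 (-1.11) and Ndufa13 (-0.71). Of these 14 genes, Cp, Slc8a1, Wtip and Ccn2 also differed from pericytes of the same WT mice (0.95, -1.17, -0.91 and 1.83), Ccn2 in the direction opposite to that against endothelial cells, and a difference from pericytes was not shown for the other genes.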

How the results depend on the processing

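The counts of genes depended strongly on the processing. In the order MCAO/R in WT mice, MCAO/R in Lrg1-/- mice, genotype after MCAO/R and genotype after sham surgery, fits with only the groups compared called 1228, 20, 5 and 1316 genes, and cells thinned to 1000 UMIs gave 61, 136, 406 and 291. Without a filter on low counts 793, 1066 and 967 genes were called in these comparisons other than genotype after MCAO/R, and 56 for the interaction. DESeq2 called 581 for MCAO/R in WT mice and 31 for the interaction. Cells with at least 4 of the 6 rule genes gave 659 for MCAO/R in WT mice, and 238 higher against 305 lower genes after sham surgery. Among genes enriched in smooth muscle cells 359 were called after MCAO/R (111 higher, 248 lower) and 92 after sham surgery (27 higher, 65 lower). For these genes the split was 122 to 217 for MCAO/R in WT mice and 73 to 295 in Lrg1-/- mice. The next 2 cell sets were chosen after seeing the data. The cells at 1% or more gave 925 and 841 genes for MCAO/R in WT and Lrg1-/- mice, and leaving out haemoglobin-rich cells gave 703 in WT mice.

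Leaving out 1 library gave 62 to 928 genes for MCAO/R in WT mice, 39 to 1187 in Lrg1-/- mice, 32 to 1498 for genotype after MCAO/R, 111 to 1045 after sham surgery and 0 to 4 for the interaction. The response differed from that of endothelial cells for 613 to 921 genes in WT and 0 to 256 in Lrg1-/- mice. For the shares, the differences ranged from -0.498 to -0.195, from -1.73 to -0.710, from -0.145 to 0.874 and from 0.946 to 1.46 percentage points.

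The share after MCAO/R turned lower in Lrg1-/- mice with at least 4 of the 6 genes (-0.217), with thinned cells (-0.299), in the cells at 1% or more (-0.473) and without haemoglobin-rich cells (-0.364). After sham surgery it went from 1.24 to 0.202 in the cells at 1% or more. Per 100 endothelial cells the difference for MCAO/R in Lrg1-/- mice turned to 10.4. The cause was not tested.

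Replicate numbers were shared between groups, but same-numbered libraries did not deviate together (correlations from -0.27 to 0.17). With the replicate block 135, 273, 365 and 108 genes were called in the order above.

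Of 155 called gene results 152 passed with DESeq2, 149 in the cells at 1% or more, 154 without haemoglobin-rich cells, and 80 of the 141 tested with thinned cells. With the replicate block 101 of 155 passed, with only the groups compared 76 of 154, and without MCAO/R + WT replicate 1 or 2 the number was 86 and 85. Signs turned for Mt3 with thinned cells (-0.21) and in the cells at 1% or more (-0.092), and for Atp13a5, a pericyte marker, in sham mice without cells holding 2 pericyte genes (0.22). Of results that were not called, Cldn11 ranged from -1.23 to 0.16 with 1 library left out (0.13 without sham + WT replicate 1), and Klf4 was at 0.036 with thinned cells. Pcdh9 turned to -0.067 with the replicate block, ranged from -0.87 to 0.67 with 1 library left out (-0.056 without sham + WT replicate 3), and was at -0.65 with at least 4 genes, -0.20 thinned, -0.015 without cells of pericyte genes and -0.35 in the cells at 1% or more.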
